A study of Mus musculus with 6 samples.

Results

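The myeloid priming genes described here are 10 mouse genes, Mpo, Elane, Prtn3, Ctsg, Cebpa, Spi1, Gfi1, Csf1r, Csf3r and Csf2ra, chosen by name out of 49315 genes counted in bulk RNA-seq of hematopoietic stem and progenitor cells. All 10 were found, by matching gene identifiers to symbols in the GENCODE annotation of GRCm38. There were 6 libraries, since long-term stem cells (LT-HSC), short-term stem cells (ST-HSC) and multipotent progenitors (MPP) were each sequenced once from WT and once from ING4-/- mice. The ING4-/- line was kept as a colony, and how its allele was made is not given in the sources used here. ING4 is a chromatin reader protein of the inhibitor of growth family. For each library, marrow of 8 to 10 mice was pooled, depleted of lineage-positive cells and sorted as lineage-negative Sca1+ c-Kit+ (LSK) cells, the LT-HSCs as CD48- CD34- CD150+, the ST-HSCs as CD48- CD34+ CD150+ and the MPPs as CD48- CD34+ CD150-. According to the methods, WT controls were C57BL/6 mice of 8 to 12 weeks, and no treatment is named for the sequenced cells. The age and strain background of the ING4-/- mice that gave the libraries are not given in the sources used here. Because every population of a genotype was sequenced once, the 3 populations served as the only replicates of a genotype and the 2 genotypes as the only replicates of a population.

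Multipotent progenitors begin to transcribe genes of the myeloid lineage at a low level before they commit to it, which is known as priming. The transcription factors PU.1 (Spi1) and C/EBPα (Cebpa) drive the program toward neutrophils and monocytes, while Gfi1 favors the neutrophil branch and restrains the monocyte branch. Their known targets include the enzymes stored in the primary granules of neutrophil precursors (Mpo, Elane, Prtn3, Ctsg) and the receptors for the colony-stimulating factors (Csf1r, Csf3r, Csf2ra), through which the cells receive growth and survival signals.

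The sequences in front of the granule genes are shown because these 4 genes share a role but differed in their levels. RefSeq windows of the 250 bases before the transcription start (GRCm38.p6) were matched for 8 of the 10 genes, with a pair of starts for Gfi1 and none for Spi1 and Csf1r. The letters GAGGAA, a core of the element bound by PU.1, were searched on both strands and are in capitals in the sequences. They were found in 6 of the 8 genes, Mpo, Elane, Prtn3, Ctsg, Csf3r and Csf2ra, with 8 matches in all and each on the strand of the gene. Of 32851 windows of this length from all genes, 23.3% hold these letters. The C/EBP letters TTGCNNAA, which share no position with them, were found in 1 of the 8 genes, Gfi1, and in 9.56% of all windows. Only the part of each window that lies outside annotated exons is printed, 5′ to 3′ on the strand of the gene. The RefSeq start used for Prtn3 lies downstream of the annotated start of the gene as counted, so its window falls inside that gene (79874476 to 79883174). The printed part covers chr11:87793534-87793580 for Mpo, chr10:79886062-79886246 for Elane, chr10:79879417-79879613 for Prtn3 and chr14:56102575-56102824 for Ctsg, the last on the minus strand.
Mpo: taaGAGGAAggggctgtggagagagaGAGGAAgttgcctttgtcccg
Elane: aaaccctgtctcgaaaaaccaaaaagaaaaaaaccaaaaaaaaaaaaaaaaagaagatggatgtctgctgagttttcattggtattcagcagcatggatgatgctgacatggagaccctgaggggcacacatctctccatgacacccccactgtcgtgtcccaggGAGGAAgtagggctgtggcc
Prtn3: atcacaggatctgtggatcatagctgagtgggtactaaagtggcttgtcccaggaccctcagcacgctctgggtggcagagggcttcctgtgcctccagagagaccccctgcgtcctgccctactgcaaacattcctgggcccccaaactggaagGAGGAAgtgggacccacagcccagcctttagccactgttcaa
Ctsg: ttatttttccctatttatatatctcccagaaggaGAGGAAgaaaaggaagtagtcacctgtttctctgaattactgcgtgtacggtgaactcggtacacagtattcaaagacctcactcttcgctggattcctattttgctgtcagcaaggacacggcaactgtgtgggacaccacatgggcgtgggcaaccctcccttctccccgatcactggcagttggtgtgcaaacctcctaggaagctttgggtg

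Read totals per library were 7839326 to 9363442 in WT and 35596876 to 39192588 in ING4-/-. Olfactory and vomeronasal receptor genes, which blood cells are not known to use, had 18.3 to 22.9 counts per kb of exon in WT and no more than 0.080 in ING4-/-. A background of this density over all exons amounts to 22.8% to 33.7% of the WT counts and to 0.0135% to 0.0263% of the ING4-/- counts. It varied with GC content, and in WT LT-HSCs it was 22.4 counts per kb in genes under 40% GC, 29.8 in genes of 40% to 45% and 4.12 in genes of 60% or more. For each of the 10 genes the WT values are therefore given beside the background for its length and GC class. For the genes of other lists no such value is printed. The targeted gene, Ing4, was counted 247, 162 and 247 times in WT, here and below in the order LT-HSC, ST-HSC, MPP, and 0, 24 and 76 times in ING4-/-. Cd34 and Slamf1, which encode the CD34 and CD150 used in the sort, differed between LT-HSCs and MPPs in the direction of the gates. Cd48, whose protein was gated out of all 3 populations, did not follow the gates. Cd34 was at 109 CPM in LT-HSCs and 714 in MPPs of WT and at 304 and 1559 in ING4-/-, and Slamf1 at 104 and 33.0 in WT and at 111 and 8.81 in ING4-/-. ST-HSCs, gated as CD34+ and CD150+, lay between these for both genes. They had Cd34 at 237 CPM in WT and 715 in ING4-/-, and Slamf1 at 81.3 and 28.1. Cd48 was at 5.27, 16.6 and 36.9 CPM in WT and at 0, 34.1 and 127 in ING4-/-, so that it was highest in MPPs, as Mpo was, and its part in the Mpo result was not tested. Levels are given as CPM, the counts of a gene relative to the library total, scaled by the trimmed mean of M values (TMM), and in bulk RNA fewer expressing cells and less RNA per cell cannot be told apart.

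The clearest pattern among the 10 genes was a higher level of Mpo at the MPP step in both genotypes. Csf3r and Spi1 showed smaller differences there. Prtn3 was at a higher level in ING4-/- cells, and its call was lost when the WT background was subtracted. In the comparison of the 3 ING4-/- with the 3 WT libraries, 9 of the 10 genes had enough counts to be tested, all but Cebpa, and 1 was called higher (Prtn3) and 1 lower (Csf1r). With each subtraction of the background 0 of the 10 were called, and Csf1r, whose WT counts were at background, was no longer tested. A call required an adjusted p under 0.05 in edgeR's quasi-likelihood test and an absolute log2 fold change over 1. Among all 31001 genes tested, 7.98% were called higher and 56.7% lower. The log2 fold change had a median of -6.85 over all genes and 0.71 over the 9. When only the 9673 genes that reach 10 counts everywhere were tested, the median was 0.020, and 803 were called higher and 936 lower. After subtraction of the background by GC class it was -0.75 over the 19286 genes tested. Over the 6 myeloid priming genes tested then it was 0.14. In MPPs against LT-HSCs, edgeR called 0 of the 10 genes and 0 of 36170 genes in all (0%), while 3 of the 10 and 564 of all genes had an unadjusted p under 0.05. DESeq2 called 346 genes there, and 1 of them was a myeloid priming gene, Mpo. In ST-HSCs against LT-HSCs, edgeR called 0 of the 10 and 0 of 36170 (0%), with 1 of the 10 and 624 of all genes under an unadjusted p of 0.05. DESeq2 called 187 genes, of which 2, Mpo and Elane, were myeloid priming genes. At the level of direction, 6 of the 10 genes had a higher CPM in MPPs than in LT-HSCs in both genotypes, against 16.1% of all genes tested. In ST-HSCs 5 of the 10 had a higher CPM than in LT-HSCs in both genotypes, against 14.1%. Genes with no ING4-/- count cannot be higher in both genotypes, which lowers these shares. Per ING4-/- library 14680 to 16188 genes had a count, while 36170 genes were tested. Of the 10 lymphoid priming genes compared below, 6 were also higher in MPPs and 5 in ST-HSCs in both genotypes.

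**Figure D1:**
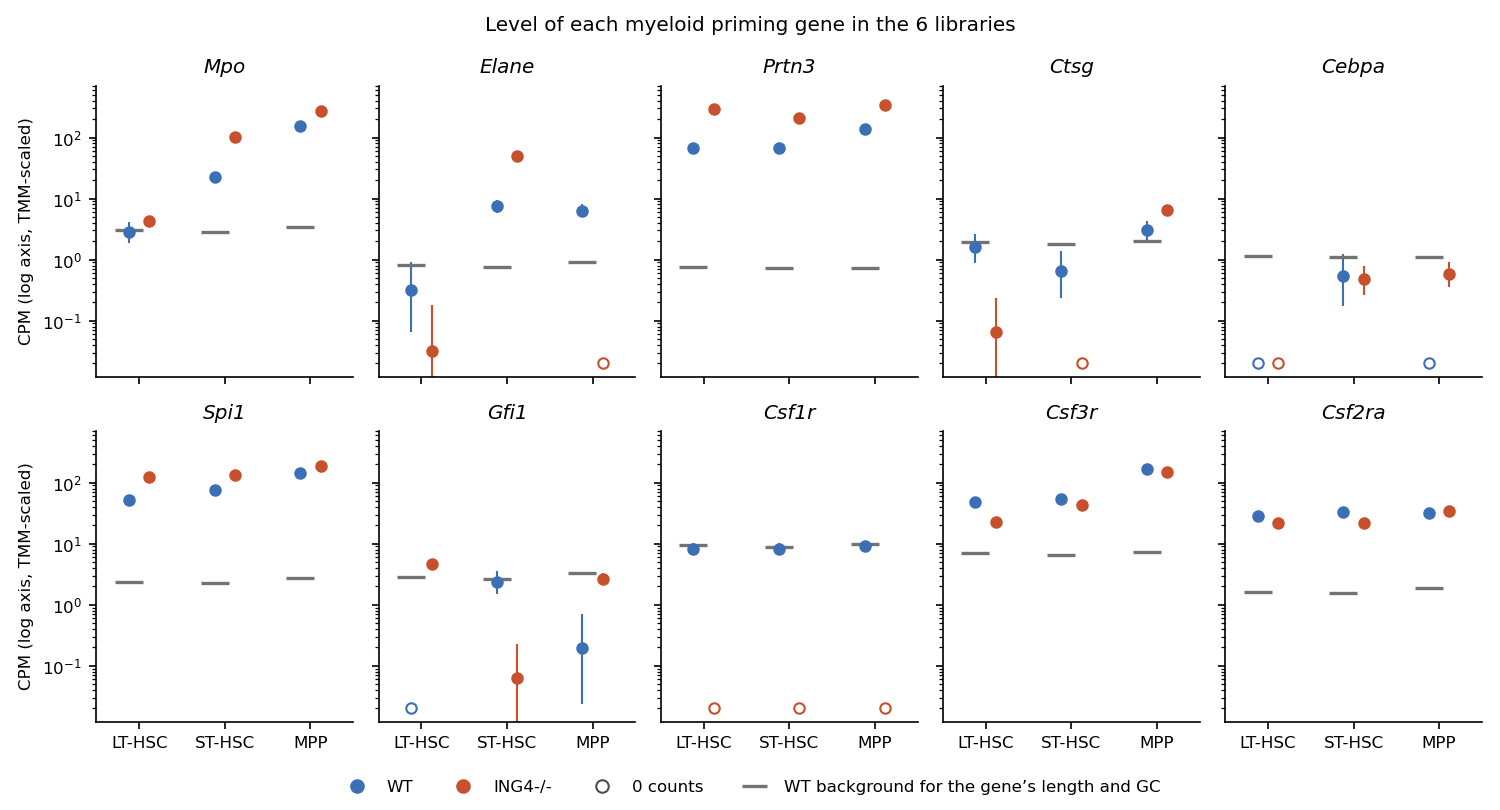
CPM of each of the 10 genes on a log axis in LT-HSCs, ST-HSCs and MPPs (1 library per point), with WT in blue, ING4-/- in red and bars for the 95% exact Poisson interval of counting error. Open circles at the bottom are libraries with 0 counts, and grey dashes give the WT background for the length and GC class of the gene. Mpo climbs from 2.84 to 155 CPM in WT and from 4.31 to 268 in ING4-/-, while the WT points of Csf1r lie on the dashes.

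Mpo encodes myeloperoxidase, the heme enzyme of the primary granules that makes hypochlorous acid. It lies on chromosome 11 (GRCm38, 87793581 to 87804413, plus strand), and 15.0% of its exonic bases overlap the gene Gm11505 on the opposite strand. In WT it had 27, 209 and 1577 counts, or 2.84, 22.5 and 155 CPM. In ING4-/- it had 135, 3192 and 9107 counts, or 4.31, 101 and 268 CPM. The order LT-HSC, ST-HSC, MPP held in both genotypes, and the WT LT-HSC value was at the background for the gene, which was 26.3 to 35.3 counts in WT and 28.9 in that library. From LT-HSCs to MPPs the level was 54.4-fold higher in WT (95% interval of counting error 37.3 to 82.8) and 62.2-fold higher in ING4-/- (52.5 to 74.3). On the counts as deposited, ST-HSCs were 7.91-fold above LT-HSCs in WT (5.29 to 12.3) and 23.4-fold in ING4-/- (19.7 to 28.0). Since the WT LT-HSC counts were no more than background, nothing of them was left after its subtraction, and neither the WT folds over LT-HSCs nor which genotype had the larger one could then be given. From ST-HSCs to MPPs the level was 6.88-fold higher in WT (5.95 to 7.98) and 2.66-fold higher in ING4-/- (2.55 to 2.77), and 7.08-fold and 2.65-fold after subtraction.

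Fitted over both genotypes, the log2 fold change of Mpo in MPPs against LT-HSCs was 5.87 (SE 0.57) with an unadjusted p of 8.24e-05 and an adjusted p of 1 over 36170 genes. With the test limited to the 9673 genes that reach 10 counts everywhere it was 5.76 (SE 0.53, adjusted p = 0.0457), and only Mpo and Cd34 were called there. DESeq2 gave 5.70 with an adjusted p of 6.29e-09. For ST-HSCs against LT-HSCs the log2 fold change was 3.83 (SE 0.53, unadjusted p = 4.96e-04, adjusted p = 1), and 3.77 in DESeq2 (adjusted p = 0.00590). Between genotypes, Mpo was 1.52-fold higher in ING4-/- LT-HSCs (0.998 to 2.39), 4.49-fold higher in ST-HSCs (3.90 to 5.18) and 1.74-fold higher in MPPs (1.65 to 1.83), with 1 library on each side. The 3 libraries of each genotype spread far more widely than that, and the log2 fold change of 1.05 (SE 1.56) did not pass the test (adjusted p = 0.588). With population as a block, which compares the genotypes within each population, it was 1.19 (SE 0.39) and was called (adjusted p = 0.0420). With the background of its GC class removed, the genotype difference was 0.33 (SE 1.81, adjusted p = 0.908). Without the ING4-/- MPP library it was -0.16 and without the WT MPP library 3.13, in fits that, here and for the genes below, leave a population in 1 genotype only.

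Prtn3 encodes proteinase 3, a serine protease of the same granules. It lies on chromosome 10 (79874476 to 79883174, plus strand) 3137 bases upstream of the annotated start of Elane in the count files, and 9.18% of its exonic bases overlap Plppr3 on the opposite strand. In WT it stood at 66.5, 68.0 and 140.5 CPM, from 631, 632 and 1432 counts. Its ING4-/- levels were 295, 212 and 345 CPM, from 9221, 6695 and 11708 counts. Every ING4-/- library was above every WT library. Within populations the ratio of ING4-/- to WT was 4.43 in LT-HSCs (4.09 to 4.81), 3.11 in ST-HSCs (2.87 to 3.38) and 2.46 in MPPs (2.33 to 2.60).

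The log2 fold change of Prtn3 between genotypes was 1.63 (SE 0.36, adjusted p = 0.00518) and it was called. The call was retained with DESeq2's size factors (1.31, adjusted p = 0.0073), with upper-quartile normalization (2.22, adjusted p = 0.00113), with the population block (1.69, adjusted p = 0.0259) and without any 1 of the 6 libraries (1.44 to 1.95). These normalizations put the median of all genes at -7.17 and -6.35. The call was lost when the WT background was subtracted from every count, by GC class (0.84, SE 0.34, adjusted p = 0.0920) or at the density of the receptor genes (0.90, adjusted p = 0.0685). After subtraction by GC class the WT levels were 92.5, 100.2 and 192 CPM and the ING4-/- levels 279, 194 and 315, which still did not overlap. The subtraction took 6.76 to 7.41 counts from Prtn3 in a WT library, and it also lowered the WT library sizes by which all counts are scaled. From LT-HSCs to MPPs Prtn3 was 2.11-fold higher in WT (1.92 to 2.33) and 1.17-fold higher in ING4-/- (1.14 to 1.20), and the fitted log2 fold change of 0.65 (SE 0.29) had an adjusted p of 1.

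Elane encodes neutrophil elastase and lies on chromosome 10 from 79886247 to 79888215. In WT it had 3, 70 and 65 counts, or 0.316, 7.54 and 6.38 CPM, against a background of 7.77, 7.06 and 9.47 counts. In ING4-/- it had 1, 1590 and 0 counts, or 0.0320, 50.3 and 0 CPM. Elane thus peaked in a single ING4-/- library, the ST-HSCs, and the deeper ING4-/- MPP library held none, with 0 of 39192588 counts allowing up to 3. In ING4-/- the MPP level was at least 569-fold below that of ST-HSCs, whereas in WT the ratio of MPPs to ST-HSCs was 0.846 (0.594 to 1.20). The genotype fold change of 1.82 on the log2 scale (SE 2.51) did not pass the test (adjusted p = 0.560), and was -2.99 with the population block (adjusted p = 0.501). Without the ING4-/- ST-HSC library it was -7.72 and was called lower (adjusted p = 0.0106). Against LT-HSCs the ST-HSC level gave a log2 fold change of 9.34 (SE 3.88, adjusted p = 1) in edgeR and 9.52 in DESeq2 (adjusted p = 0.0158), and it was higher in both genotypes. Leaving out 1 library moved the edgeR value between 2.85 and 11.7.

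Ctsg encodes cathepsin G, another serine protease of the granule, on chromosome 14 from 56099881 to 56102574. Its WT counts were 15, 6 and 31, where background alone gives 18.3, 16.6 and 20.3. In ING4-/- it had 2, 0 and 223 counts, or 0.0639, 0 and 6.57 CPM. The WT libraries stayed near that background, and the high library was that of ING4-/- MPPs, where Ctsg was 103-fold above LT-HSCs (28.1 to 855) and at least 69.3-fold above ST-HSCs. The MPP against LT-HSC log2 fold change was 4.90 (SE 3.04, adjusted p = 1), and 0.62 to 6.91 when 1 library was left out. Between genotypes it was 0.33 (SE 1.84, adjusted p = 0.890) and took the opposite sign with DESeq2's size factors (-0.014) and with the block (-3.34). Without the ING4-/- MPP library it was -5.49 and was called lower (adjusted p = 0.0151). In ING4-/- MPPs, then, Mpo, Prtn3 and Ctsg were each at their highest level of the 6 libraries, while Elane had no count.

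**Figure D2:**
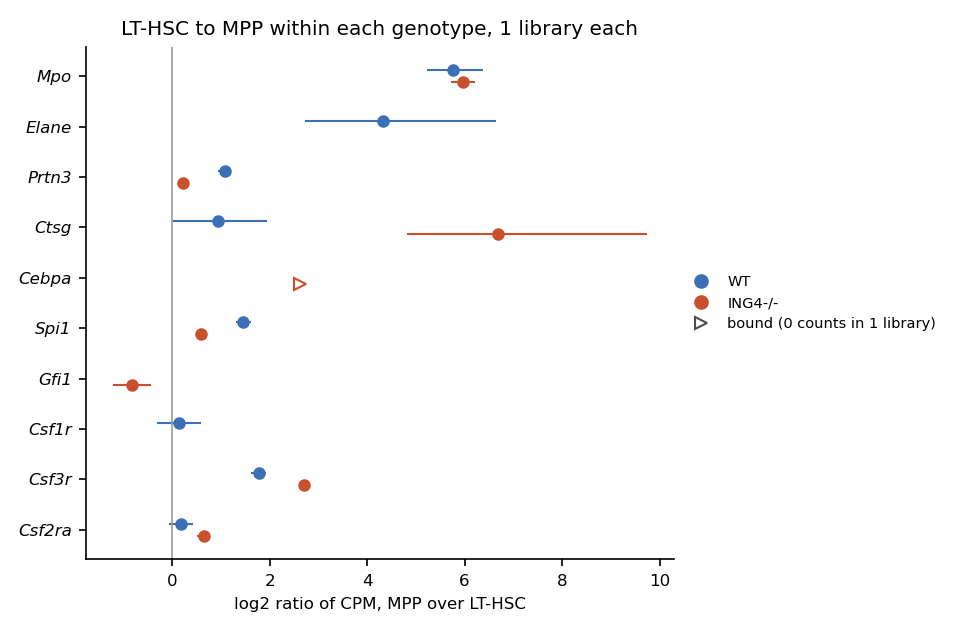
Log2 ratio of the CPM in MPPs to that in LT-HSCs for each gene within WT (blue) and ING4-/- (red), 1 library on each side, with bars for the 95% interval of counting error. The triangle is a lower bound where LT-HSCs had 0 counts, and pairs at or under 3 counts in both libraries have no point. Mpo lies near 5.77 in WT and 5.96 in ING4-/-, Csf3r at 1.78 and 2.71, and Gfi1 in ING4-/- lies below 0 at -0.82.

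Spi1, which encodes the transcription factor PU.1, lies on chromosome 2 from 91082390 to 91115756. Its WT levels were 52.0, 75.4 and 143 CPM, from 494, 700 and 1459 counts against a background of 20.7 to 27.7, and its ING4-/- levels were 124, 132 and 188 CPM. MPPs were highest in both genotypes, and WT MPPs were above ING4-/- LT-HSCs and ST-HSCs, so the genotypes overlapped. From LT-HSCs to MPPs Spi1 was 2.75-fold higher in WT (2.48 to 3.05) and 1.51-fold higher in ING4-/- (1.45 to 1.57). The fitted log2 fold change was 1.03 (SE 0.32, unadjusted p = 0.0214, adjusted p = 1). Between genotypes it was 0.71 (SE 0.40, adjusted p = 0.161). It was called with upper-quartile normalization (1.31, adjusted p = 0.0198) and without the WT MPP library (1.08, adjusted p = 0.0330), and was -0.056 (adjusted p = 0.926) after subtraction of the GC-class background. With the block it was 0.82 with an adjusted p of 0.0369, short of the fold threshold.

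Cebpa, which encodes C/EBPα and lies on chromosome 7 from 35119293 to 35121928, was close to undetected. Its WT counts were 0, 5 and 0, less than the 10.3 to 11.3 counts that background would give, and 0, 15 and 20 counts in ING4-/-. A count of 0 allows 3 counts, which is 0.316 CPM in WT LT-HSCs and 0.0959 in ING4-/- LT-HSCs. In ING4-/- the MPP level was at least 6.15-fold and the ST-HSC level at least 4.95-fold above LT-HSCs, while in WT the ST-HSC level was at least 1.70-fold above LT-HSCs, from 5 counts that are below background. Gfi1, a transcriptional repressor on chromosome 5 (107716657 to 107726036, minus strand), was low and irregular. Its counts were 0, 22 and 2 in WT, where background gives 24.9 to 33.4, and 148, 2 and 91 in ING4-/-. In ING4-/- Gfi1 was thus above the floor in LT-HSCs (4.73 CPM) and MPPs (2.68 CPM) but not in ST-HSCs (0.0632 CPM). The genotype log2 fold change of Gfi1 was 1.54 (SE 1.67, adjusted p = 0.456). It was 3.11 with the population block (SE 3.83, adjusted p = 0.516) and 0.72 to 4.60 when 1 library was left out. In the same ING4-/- ST-HSC library Elane was at its highest.

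Among the receptors, Csf3r encodes the receptor for granulocyte colony-stimulating factor, on chromosome 4 from 126024550 to 126044440. Its WT levels were 48.0, 54.4 and 165 CPM, from 456, 505 and 1678 counts against a background of 59.6 to 73.2. Its ING4-/- levels were 22.8, 43.1 and 149 CPM, from 713, 1363 and 5065 counts. MPPs were highest in both genotypes, by 3.43-fold over LT-HSCs in WT (3.09 to 3.81) and 6.55-fold in ING4-/- (6.06 to 7.10). The fitted log2 fold change was 2.23 (SE 0.39) with an unadjusted p of 0.00159 and an adjusted p of 1, and 0.128 in DESeq2. Within each population Csf3r was lower in ING4-/-, with a ratio of 0.474 in LT-HSCs (0.421 to 0.535), 0.793 in ST-HSCs (0.715 to 0.880) and 0.907 in MPPs (0.858 to 0.959). The genotype difference of -0.31 (SE 0.78, adjusted p = 0.754) did not pass the test, and its sign turned with upper-quartile normalization (0.26), without the ING4-/- LT-HSC library (0.14) and without the WT MPP library (0.34).

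Csf2ra encodes the specific chain of the receptor for granulocyte-macrophage colony-stimulating factor, on chromosome 19 from 61223957 to 61228429. Its WT levels of 28.4, 32.7 and 32.3 CPM, from 270, 304 and 329 counts against a background of 14.2 to 19.0, varied little between populations, and its ING4-/- levels were 22.0, 21.6 and 34.4 CPM. The log2 fold change of MPPs against LT-HSCs was 0.43 (SE 0.65, adjusted p = 1), from a ratio of 1.14 in WT (0.964 to 1.34) and of 1.57 in ING4-/- (1.42 to 1.72). Between genotypes the log2 fold change was -0.26 (SE 0.39, adjusted p = 0.586), or 0.32 with upper-quartile normalization and -1.01 (adjusted p = 0.104) after GC-class subtraction.

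Csf1r encodes the receptor for macrophage colony-stimulating factor, which marks monocytes and macrophages. It had 78, 76 and 92 counts in the WT libraries and 0 in each ING4-/- library, and this difference was called (adjusted p = 6.57e-04). The WT counts were at the background for the gene's length and GC class, which was 89.4, 80.7 and 99.0 counts, and nothing was left after subtraction. With every ING4-/- library at 0, the level there was at least 85.7-fold lower in LT-HSCs, 86.2-fold lower in ST-HSCs and 102-fold lower in MPPs than the WT level with its background. Of its exonic bases, 15.1% overlap Hmgxb3 on the opposite strand. The ratio of MPPs to LT-HSCs in WT was 1.10 (0.804 to 1.51), and the fitted log2 fold change of 0.11 became -0.057 with DESeq2's size factors.

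**Figure D3:**
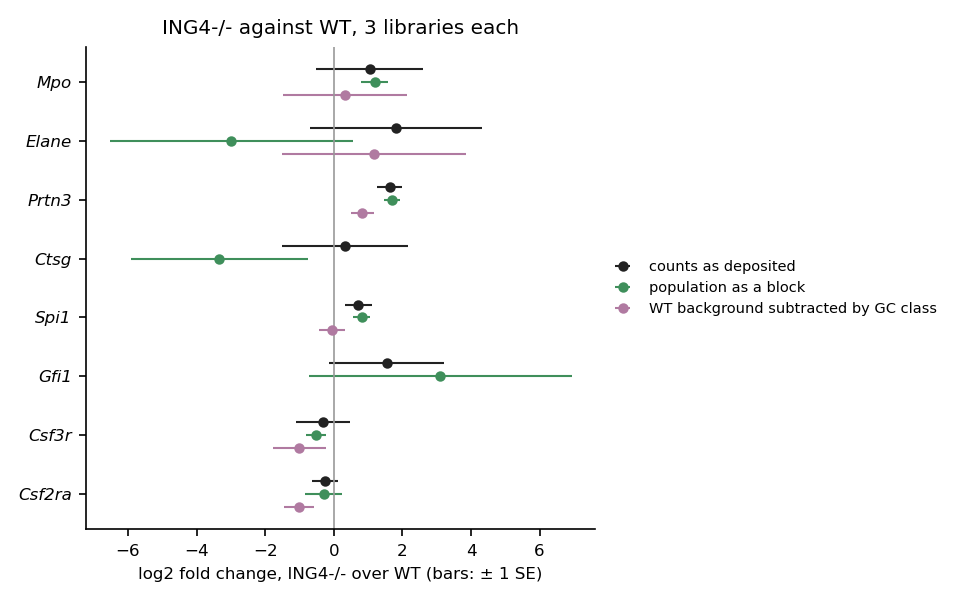
Log2 fold change of ING4-/- over WT with its standard error for 8 of the genes, 3 libraries a side, from the counts as deposited (black), with population as a block (green) and after subtraction of the WT background by GC class (purple). Csf1r has no measurable ING4-/- level and Cebpa was not tested, and Ctsg and Gfi1 could not be tested after subtraction. Prtn3 keeps a narrow bar at 1.63, 1.69 and 0.84, while every bar of Elane and Gfi1 crosses 0.

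Compared per kb of exon, which allows levels of different genes to be set side by side, Prtn3 was the highest of the 10 genes in all 6 libraries, also with plain library totals and after subtraction. Its mean was 52.9 ± 24.4 RPKM in WT and 164 ± 38.9 in ING4-/- (SD, n = 3 libraries of different populations). Spi1 followed with 33.5 ± 17.6 and 54.9 ± 12.9 RPKM. In WT the next were Csf3r (24.7 ± 18.2), Mpo (17.5 ± 24.1) and Csf2ra (16.8 ± 1.28), and these first 5 neighbors differed by less than their spread. In ING4-/- Prtn3 stood above Spi1 by more than the spread, while Spi1, Mpo (36.4 ± 39.0), Csf3r (19.9 ± 18.8), Elane (18.2 ± 31.5) and Csf2ra (14.0 ± 3.93) did not differ from their neighbors beyond it. Mpo moved through this order, from rank 7 in LT-HSCs to 6 in ST-HSCs and 4 in MPPs of WT, and from 6 to 4 to 2 in ING4-/-. Cebpa, Gfi1, Ctsg and Csf1r were each at or below 3.04 RPKM in WT and 6.56 in ING4-/-.

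The other myeloid genes of a list of 25 show what else of the program was measured. Of the 24 tested between genotypes, 3 were called higher and 4 lower, with a median log2 fold change of 0.45. Over all genes tested 7.98% were called higher and 56.7% lower. The higher genes were Srgn, the granule proteoglycan (1.62), Lyz2, lysozyme (1.26), and Ctsc, the protease that activates the granule serine proteases (1.15). The lower genes were Fcgr3, Klf4, Il6ra and Hp, of which Fcgr3 had 0 counts in every ING4-/- library. With the population block, 6 were called higher, Plac8, Nkg7 and Serpinb1a being added, and 3 lower. In that fit 1999 of all 31001 genes were called higher and 16880 lower. After subtraction by GC class 0 of 20 were called higher and 2 lower, Fcgr3 and Hp, with 4 of the 20 at an unadjusted p under 0.05. Of all 19286 genes tested then, 1058 were called higher and 6959 lower, and 9287 had such a p. Scaling also reached these genes, since the median of all genes moved with the normalization as given for Prtn3.

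Of the 24 other myeloid genes tested, 12 had a higher CPM in MPPs than in LT-HSCs in both genotypes, against 16.1% of all genes tested. In this comparison edgeR called 0 of the 24, with 4 at an unadjusted p under 0.05. The 4 were Nkg7, Serpinb1a, Plac8 and Prss57, named here after their values were seen, and all 4 were higher. Nkg7, a granule membrane protein, was at 8.21, 48.6 and 90.9 CPM in WT and at 26.9, 267 and 228 in ING4-/-. Serpinb1a, an inhibitor of the granule serine proteases, was at 48.3, 95.5 and 161 CPM in WT and at 61.2, 306 and 510 in ING4-/-. Prss57, a further granule serine protease, had 0 counts in ING4-/- LT-HSCs and 39.9 CPM in ING4-/- MPPs. Of the ligands of the receptors, Csf3 was at 0 in all 6 libraries and Csf2 at 0 in the 3 of ING4-/-. Csf1, the ligand of the Csf1r product, was at 13.6, 19.3 and 24.4 CPM in WT and at 27.9, 6.10 and 0 in ING4-/-, and its genotype log2 fold change of -0.75 (SE 1.70) did not pass the test (adjusted p = 0.726).

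Set beside other lineages, the median log2 fold change of MPPs against LT-HSCs was 1.63 over the 10 myeloid priming genes and 0.40 over the other myeloid genes. It was 0.77 over 10 lymphoid priming genes, of which 6 were higher in MPPs in both genotypes, and -0.28 over 10 erythroid and megakaryocyte genes, of which 2 were higher and 5 lower in both. The median over all genes tested was 0.094, and 16.1% of them were higher in both genotypes. After subtraction by GC class the median was 1.63 over the 8 myeloid priming genes tested and 1.54 over the 8 lymphoid genes tested. It was then 0.46 over 21 other myeloid genes and -0.33 over the 10 erythroid and megakaryocyte genes. For ST-HSCs against LT-HSCs the medians were 0.41, -0.072, 0.26 and 0.21 over the myeloid priming, other myeloid, lymphoid, and erythroid and megakaryocyte genes, and 0.11 over all genes. After subtraction by GC class they were 0.21, -0.16, 0.33 and 0.23 in the same order of lists. The myeloid priming median was then below the lymphoid and the erythroid and megakaryocyte medians. The lists were not tested against each other. Between genotypes 5 of the 10 lymphoid genes were called lower, where 56.7% of all genes were, and 2 of the 10 erythroid and megakaryocyte genes higher, Pf4 and Gfi1b, where 7.98% of all genes were. After subtraction by GC class 1 lymphoid gene was called lower (Il7r) and 1 higher (Satb1), and 0 erythroid and megakaryocyte genes higher and 1 lower (Gata2). Among the 19286 genes tested there, 6959 were called lower and 1058 higher.

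**Figure D4:**
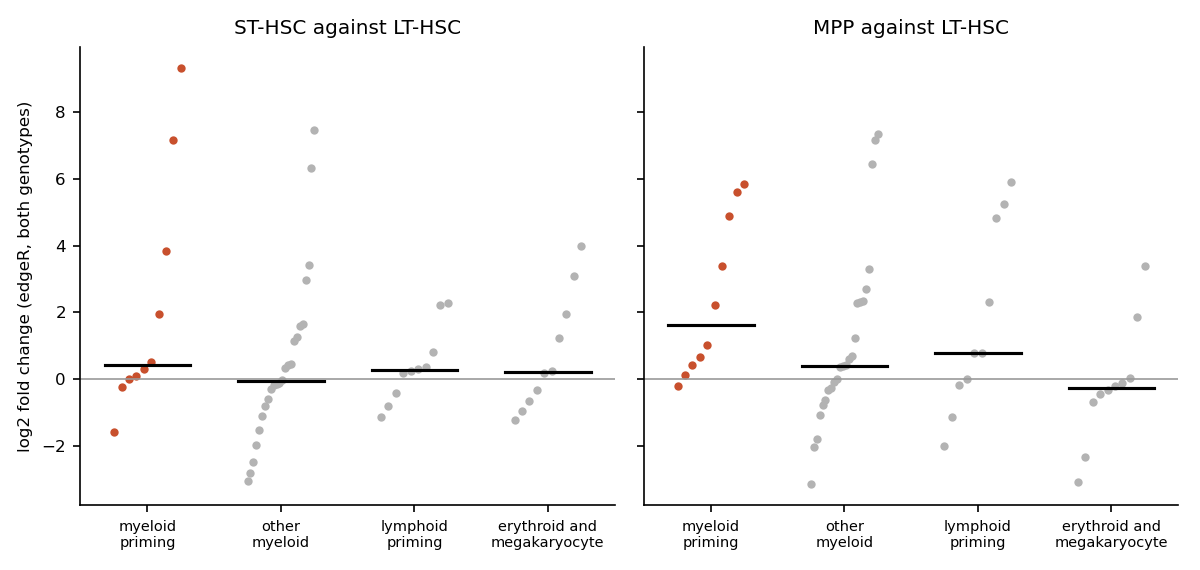
Log2 fold change in edgeR of ST-HSCs against LT-HSCs (left) and MPPs against LT-HSCs (right), 1 point per gene and a black line at the median, for the 10 myeloid priming genes (red) and 3 other lists (grey). The median of the myeloid priming genes is 0.41 at the first step and 1.63 in MPPs. That of the lymphoid genes is 0.26 and 0.77, and that of the erythroid and megakaryocyte genes 0.21 and -0.28. After subtraction by GC class, not drawn, the myeloid priming medians are 0.21 and 1.63 and the lymphoid ones 0.33 and 1.54.

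The genes whose pattern over the 6 libraries was most like the mean of the 4 granule genes were Sept2, Naa40, Med7, Tbpl1 and Rab24, with Pearson correlations of 0.995 to 0.998 among 9012 candidates, after the mean of each genotype was removed. These values describe 6 libraries that share their depth and scaling, and the highest of so many candidates are high by selection. Markers of mature cells were also measured. The 12 markers of mature neutrophils summed to 80.9 CPM in WT LT-HSCs and 53.6 in WT MPPs, and to 69.5 and 59.8 in ING4-/-. After subtraction of the WT background by GC class these sums were 60.6 and 23.8 in WT and 65.8 and 54.6 in ING4-/-. On the counts as deposited, much of the ING4-/- sum was S100a8, at 46.8 CPM in LT-HSCs and 17.2 in MPPs. Without S100a8, a split made after its values were seen, the ING4-/- sum was 22.7 CPM in LT-HSCs and 42.5 in MPPs. The WT sums without it were 75.0 and 52.8, background included. Camp (0.192 to 4.36 CPM), Ngp (1.05 to 11.7), Il1b (0 to 7.34), Cxcr2 (0 to 2.30) and Retnlg (0 to 0.649) were higher in ING4-/- MPPs than in LT-HSCs. S100a8, S100a9 (17.1 to 15.9), Ltf (4.25 to 0.295), Lcn2 (0.128 to 0) and Mmp9 (0.0320 to 0) were lower there. The part of neutrophils in the level of Mpo was not tested. Of these 12, 4 to 5 were at 0 in each ING4-/- library, among them Mmp8 and Ly6g in all 3. Between genotypes 1 of the 10 tested was called higher, S100a8 (3.43, adjusted p = 0.0486), and 2 lower, where 7.98% and 56.7% of all genes were. The 10 monocyte and macrophage markers summed to 112 to 153 CPM in WT and to 27.9 to 36.9 in ING4-/-, with 3 to 7 of the 10 at 0 there. After subtraction by GC class they summed to 69.9 to 117 CPM in WT and to 26.4 to 33.9 in ING4-/-. The part of such cells in the difference of Csf1r was not tested. The 8 erythroid markers summed to 163, 41.1 and 32.6 CPM in WT and to 186, 191 and 87.6 in ING4-/-. After subtraction by GC class they summed to 203, 33.0 and 19.8 CPM in WT and to 176, 175 and 80.0 in ING4-/-. On the counts as deposited, 4 of the 8 were called higher in ING4-/-, as Prtn3 was, where 7.98% of all genes were. These 4 were globin genes, whose near-identical copies may share reads, Hba-a1 (4.50), Hba-a2 (5.68), Hbb-bs (3.75) and Hbb-bt (4.13). Alas2, the first enzyme of heme synthesis in erythroid cells, was at 0 in all 3 ING4-/- libraries, and the part of erythroid RNA in the genotype differences was not tested. Of 6 B cell markers 5 were at 0 in each ING4-/- library, all but Cd79b, and of 6 T and NK cell markers 3 to 4.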

How the data were processed

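The 6 bulk RNA-seq libraries came from sorted WT and ING4-/- cells of 3 populations. The authors deposited raw counts of reads for each of 49315 genes in each library. The submitters' processing notes name the build mm10, and the aligner, counting program and strand setting are not given in the sources used here, so reads of genes overlapping on opposite strands may not be separable. Of the gene identifiers, 49056 were found in GENCODE for GRCm38.

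Differential expression was tested with edgeR 4.0.16 (R 4.3.3) using TMM, filterByExpr and the quasi-likelihood F test, with Benjamini-Hochberg adjustment over all genes tested. Genotype was the only term for ING4-/- against WT, and the population steps had genotype as a covariate. Each standard error was obtained from the log2 fold change and the F statistic (their ratio, with F under a square root). The thresholds for a call were 0.05 for the adjusted p and 1 for the size of the log2 fold change. DESeq2 1.42.0, other normalizations, other filters, thinning to equal depth, background subtraction and leaving out each library were alternatives, and subtraction by GC class (6 classes, from protein-coding genes with no ING4-/- count) was chosen after seeing the data. The fits were tested on simulated data.

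Deviations from the genotype means were weakly correlated between the WT and the ING4-/- library of each population (r = 0.143, 0.110 and 0.121 across 9673 genes). The populations thus pair the libraries only weakly, and the genotypes were also compared with population as a block. Ratios between single libraries carry 95% exact intervals, and a count of 0 was taken as up to 3 counts. Reads were not tagged by molecule, so these intervals and floors describe counting error only, and p-values measure the spread between these libraries. The genes and lists were chosen with earlier results of these data known. All 10 genes are named. The plan was to name at most 4 called genes per other list and comparison, by size of change, and more are named for the other myeloid genes. Genes most alike in pattern were the 5 highest Pearson correlations among protein-coding genes that reach 10 counts in each library. No table of proteins was used here.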

Additional observations from a re-analysis of the deposited data

Results flagged for a closer look

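Gfi1 moved in opposite directions between ST-HSCs and MPPs in the 2 genotypes. The log2 ratio of MPPs to ST-HSCs was -3.59 in WT, from 22 and 2 counts, and 5.41 in ING4-/-, from 2 and 91 counts. The WT counts were below the background for the gene, 24.9 in ST-HSCs and 33.4 in MPPs. With 1 library in each genotype and population, the difference between the genotypes was not tested.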

How the results depend on the processing

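The population steps rest on 2 libraries per population and the genotype comparison on 3 libraries of different populations, and 5 of the 10 genes had 0 counts in at least 1 library. In the genotype comparison 20041 of 31001 genes and 2 of the 10 were called. With at least 10 counts in every library this was 1739 of 9673 genes and 1 of the 10, with background subtraction 8701 of 19672 and 0, with subtraction and the count minimum 793 of 8073 and 0, with subtraction by GC class 8017 of 19286 and 0, and with GC class and the count minimum 745 of 8210 and 0. Prtn3 was tested in all 4 subtractions, with an adjusted p of 0.0685 to 0.122. For MPPs against LT-HSCs, DESeq2 called 346 genes and 1 of the 10, the count minimum 2 and 1, and each subtraction with the count minimum 1 gene, Cd34. For ST-HSCs against LT-HSCs DESeq2 called 187 genes and 2 of the 10. The cause was not tested. Leaving out 1 library gave 19943 to 22874 genes and 2 to 3 of the 10 for the genotypes, and 0 for both steps.

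Of the log2 fold changes between genotypes, Elane turned to -2.99 with the population block and Ctsg to -3.34 with the block, -0.014 with DESeq2's size factors and -0.011 in DESeq2. The block changed no call but that of Mpo among the 10. Spi1 turned to -0.039 with subtraction and the count minimum, to -0.056 with GC class and to -0.13 with both. Upper-quartile normalization turned Csf3r to 0.26 and Csf2ra to 0.32. For MPPs against LT-HSCs, Csf1r turned to -0.057 with DESeq2's size factors and -0.11 in DESeq2, and Gfi1 to 0.28 when thinned. For ST-HSCs against LT-HSCs, Csf1r turned to 0.0072 with upper-quartile normalization, and Gfi1 to -5.90 with subtraction, -5.89 by GC class and -1.01 without the genotype term. Leaving out 1 library gave ranges that crossed 0 between genotypes for Mpo (-0.16 to 3.13), Elane (-7.72 to 2.44), Ctsg (-5.49 to 0.94) and Csf3r (-1.41 to 0.34), in MPPs for Elane (-5.05 to 5.36), Csf1r (-0.015 to 0.14) and Gfi1 (-2.96 to 8.38), and in ST-HSCs for Prtn3 (-0.64 to 0.12), Ctsg (-5.93 to 0.47), Spi1 (-0.098 to 0.64), Csf1r (-0.023 to 0.013), Csf2ra (-0.30 to 0.31) and Gfi1 (-5.69 to 7.48).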
